A study of Bos taurus with 6 samples.

Results

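The interferon response genes are a list of 44 genes of the interferon pathway, chosen by gene symbol or current synonym on the array. Of these, 37 had at least 1 probe, 49 probes in all among the 43794 gene probes of the array. For 35 genes and 45 probes the signal was high enough to test, out of 12399 tested genes. ISG20 and TAP1 had a probe that was not tested, and OAS1X, OAS1Y, IFI44L, IFIT1, DDX58, BST2 and SP110 were not analysed here.

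The measurements came from Holstein dairy cows and their cumulus cells, which enclose the oocyte and feed it. All 6 cows of the study received follicle-stimulating hormone (FSH), with 2 injections a day over 3 days, and the cells were taken 68 h after the end of FSH. The control cells came from this regimen alone. The cetrorelix cells came from the same regimen with cetrorelix added, at a daily dose of 12 mg over 5 days that began on day 2 of FSH. Cetrorelix blocks the receptor of gonadotropin-releasing hormone and thereby lowers LH, the luteinizing hormone. In the labels it is named an agonist, although it is known as an antagonist.

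Each of 3 replicates was a pair of RNA extracts, 1 cetrorelix and 1 control, hybridised together on 2 two-colour arrays with the dyes swapped. The 3 arrays with cetrorelix in Cy5 shared a slide and those with cetrorelix in Cy3 a second one, so that a slide effect and a dye effect cannot be told apart. No label ties an extract to a cow or gives the number of cows behind it. The p-values over the 3 replicates therefore measure only the spread between these samples. Those within and among replicates measure the spread between repeat arrays of the same extracts. All ratios are log2 of cetrorelix over control. Markers of cumulus and granulosa cells were present: 10 of 12 were above background in all 12 array channels. Of 18 leukocyte markers, each read by its best probe, 2 (CD68 and PTPRC) were above background in all channels. Another PTPRC probe was above it in none. Of the 18, 14 were above it in at most 6 channels, 3 of them in none.

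Interferons bind receptors on the cell surface, and the kinases attached to them activate STAT factors, which enter the nucleus with IRF9 and switch on a set of target genes. Many of these targets act against viruses: some sense viral RNA, some block its copying or translation, and some tag proteins or present antigen. In cattle the same genes are widely known as the targets of interferon tau, the pregnancy signal of the ruminant conceptus.

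RSAD2, ISG15, IRF7, DHX58, PARP12 and IFI27 were higher with cetrorelix within both replicates 1 and 2, and none of these 6 members passed as higher within replicate 3. RSAD2 and IFI27 were lower there, while MX1, MX2, OAS2, IFIT2 and IFIT3 passed within none of the replicates. Over 7 other processing settings the higher call of IFI27 weakened in 4 within replicate 1 (limma adjusted p up to 0.539). Within replicate 2 it weakened in 3 (up to 0.2). The call of PARP12 weakened in 1 of 7 within replicate 1 and in 2 of 7 within replicate 2. RSAD2, which encodes viperin, an enzyme that makes a chain-terminating nucleotide, had log2 ratios of 2.70 and 3.46 on the arrays of replicate 1 and 3.83 and 3.69 on those of replicate 2. On the arrays of replicate 3 they were -2.14 and -1.42. All 4 arrays of replicates 1 and 2 therefore lay far above 0 and both arrays of replicate 3 below it. The averages were 3.08, 3.76 and -1.78, each with a standard error of 0.25 from the repeat arrays. In RNA from many cells, fewer cells with a high level and less RNA per cell cannot be told apart.

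ISG15, a ubiquitin-like protein that is joined to other proteins, read 2.89 and 3.03 on the arrays of replicate 1. It read 3.12 and 2.66 in replicate 2, and -0.65 and -1.05 in replicate 3. A second, dimmer ISG15 probe gave averages of 1.16, 1.28 and -0.19 in the 3 replicates, the same order at smaller size. IFI27, a small membrane protein strongly induced by interferon, averaged 0.87 and 0.95 in replicates 1 and 2. In replicate 3 it read -2.10 and -2.01, averaging -2.05. Another, dimmer IFI27 probe averaged -0.09, 0.36 and 0.04 and did not differ among replicates (limma adjusted p = 0.773). The SD of the 3 replicate averages was 3.02 for RSAD2 and 2.18 for ISG15, ranks 1 and 2 among the 32125 tested probes, and IFI27 had rank 4.

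**Figure D1:**
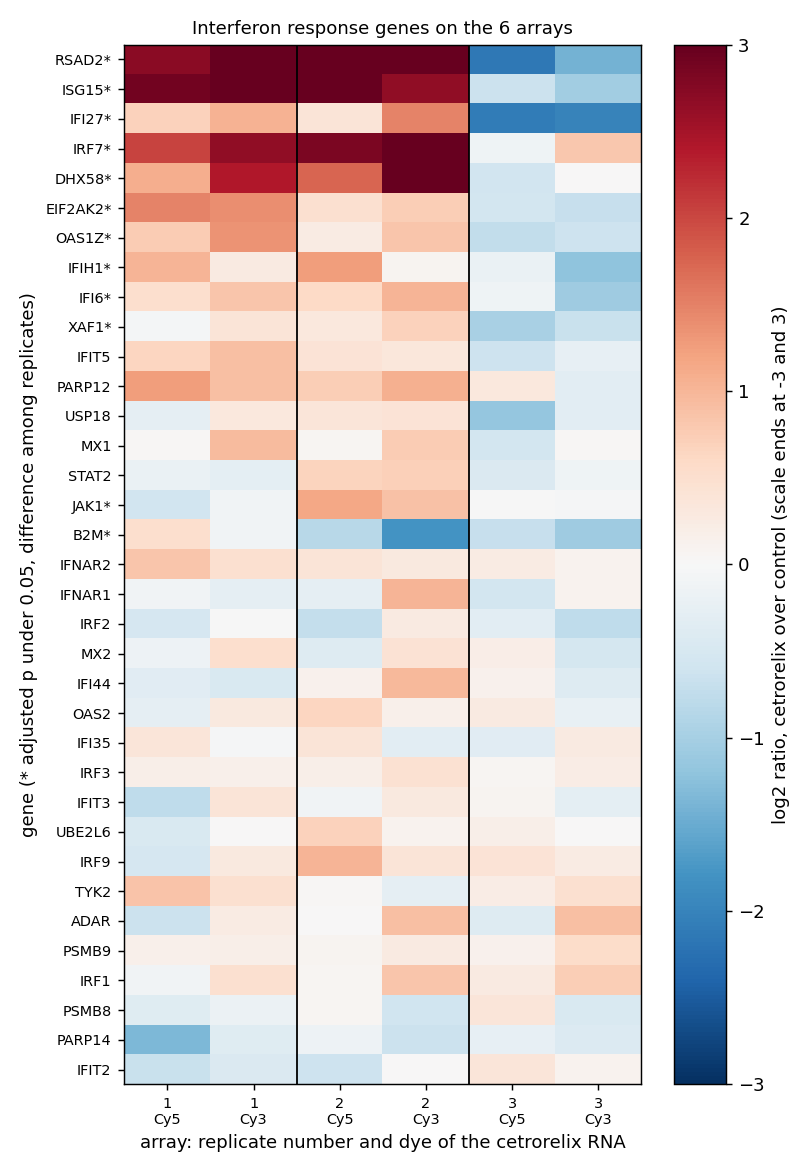
Log2 ratio of cetrorelix over control for the 35 tested genes (vertical axis) on each of the 6 arrays (horizontal axis, by replicate and dye of the cetrorelix RNA). Red is higher and blue lower with cetrorelix, the colour scale is capped, and a star marks genes that differed among replicates; RSAD2, ISG15, IFI27, IRF7 and DHX58 at the top are red in replicates 1 and 2, and RSAD2, ISG15 and IFI27 turn blue in replicate 3.

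Whether a ratio differed among the 3 replicates was tested with limma over the 6 arrays, with a term for dye orientation and Benjamini-Hochberg adjustment over all probes. The error of this test is the difference between repeat arrays of the same extracts, so it compares these extracts and not the conditions. Of the 35 members, 12 differed (34.3%), where 5.52% of all tested genes did. They were RSAD2, ISG15, IFI27, IRF7, DHX58, EIF2AK2, OAS1Z, IFIH1, B2M, IFI6, JAK1 and XAF1. The adjusted p was 1.91e-12 for RSAD2, 6.51e-09 for ISG15 and 2.74e-06 for IFI27. For JAK1 and XAF1 it was 0.0378 and 0.0430. Without the term for dye orientation, 2 members passed, RSAD2 at an adjusted p of 0.0111 and ISG15 at 0.0432 by limma, and 2 probes in all. On gene means the differences of B2M (limma adjusted p = 0.375), IFI6 (0.0818), XAF1 (0.434) and JAK1 (0.601) were lost as well, XAF1 without a filter (0.0542) and JAK1 after scale normalization between arrays (0.0516).

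Taken pair by pair, replicate 3 stood apart. Between replicates 3 and 2, 10 members differed and all 10 were lower in replicate 3, where 6.42% of all tested genes differed. Between replicates 3 and 1 it was 8 members, again all lower in replicate 3 (1.45% of all genes). Between replicates 2 and 1 the only member was B2M (0.5% of all genes). Replicate 3 had the lowest ratio on both slides in 15 of the 35 tested members (42.9%) and in 16.7% of all tested genes. Among the 12 differing members this held for 10, but these were chosen by a test on the same arrays.

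The receptor chains and kinases lie at the start of the pathway. IFNAR1, a chain of the receptor for type I interferons, averaged -0.19, 0.37 and -0.22 in the 3 replicates on its brightest probe. IFNAR2, the other chain, lay at 0.66, 0.35 and 0.18 and was above 0 on 6 of 6 arrays, with a mean of 0.39 ± 0.24 (SD, n = 3; limma adjusted p = 0.383). It was above background on only 3 of 6 arrays in each condition, and in replicate 2 on none.

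The kinase JAK1 averaged -0.34, 1.02 and -0.03, so only replicate 2 was called (higher, limma adjusted p = 0.00472), and its second, dimmer probe read 0.06, -0.26 and -0.07. The -0.03 turned to 0.08 when arrays were centred on their median in place of loess. TYK2, the kinase bound to IFNAR1, averaged 0.67, -0.12 and 0.35 and did not pass any test.

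Among the transcription factors IRF7, which drives the later wave of interferon production, stood apart. Its ratios were 2.03 and 2.65 on the arrays of replicate 1 and 2.83 and 3.41 on those of replicate 2. In replicate 3 they were -0.14 and 0.81, near 0 and of opposite sign. IRF7 was the only member that passed the comparison of cetrorelix with control over the 3 replicates, 3.82-fold higher (log2 ratio 1.93 ± 1.43, SD, n = 3; limma adjusted p = 0.0335). Its share of 1 in 35 tested members stands beside 1.56% of all tested genes.

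That call was lost without background correction (adjusted p = 0.135 by limma), under median centring (0.0628), on the authors' values (0.0843) and without replicate 1 (0.315). The mean log2 ratio in these settings was 1.87, 1.78, 1.86 and 1.73, so its size moved little in them. Over all 14 settings tried it ran from 1.34 to 2.73, the latter without replicate 3. The SD of 1.43 is the rank 15 value among 32125 tested probes, whose median SD was 0.28, and limma moderates such an SD toward the rest. With moderation made robust to such probes, an alternative chosen after seeing the data, the adjusted p of IRF7 was 0.0440.

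STAT2, the partner of IRF9, averaged -0.26, 0.69 and -0.28, and IRF9 itself, a dim probe, -0.11, 0.71 and 0.33. IRF1, an activator, averaged 0.19, 0.45 and 0.50. IRF2, known to oppose it, was above background on 1 cetrorelix and 3 control arrays of 6 and in neither extract of replicate 1. In replicate 3 it averaged -0.54, with the cetrorelix signal not well above background. IRF3, which starts the first wave of interferon production, averaged 0.17, 0.32 and 0.14. None of these 5 passed a test at adjusted p under 0.05.

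DHX58, IFIH1 and EIF2AK2, which sense double-stranded RNA, also had their lowest ratio in replicate 3. DHX58, also called LGP2, read 1.09 and 2.40 on the arrays of replicate 1, 1.75 and 2.99 on those of replicate 2, and -0.58 and 0.01 on those of replicate 3. On each slide the arrays of replicates 1 and 2 were above that of replicate 3. The values with cetrorelix in Cy3 were the higher ones in every replicate (dye coefficient -0.53, limma adjusted p = 0.0134).

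IFIH1, also called MDA5, averaged 0.65, 0.67 and -0.71, with the Cy5 arrays of replicates 1 and 2 at 1.03 and 1.25 and the Cy3 arrays at 0.27 and 0.08. EIF2AK2, the kinase PKR that stops translation when it meets double-stranded RNA, averaged 1.45, 0.60 and -0.62. It lay above 0 on all arrays of replicates 1 and 2 and below 0 on both of replicate 3. ADAR, which edits double-stranded RNA, was dim, averaged -0.20, 0.46 and 0.26 and passed no test.

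OAS1, whose product makes the messenger that activates RNase L, was read from 3 probes matched to OAS1Z by synonym. The bovine OAS1 genes are near-identical copies, so which copy these probes read is uncertain. The brightest probe averaged 1.06, 0.54 and -0.68 and the others 1.36, 1.49 and -0.08, and 0.36, 0.01 and -1.29. All 3 probes were lowest in replicate 3 and each differed among replicates (limma adjusted p from 0.00727 to 0.00852). The last of them was dim, above background on 3 of 6 arrays in each condition and on none in the control extract of replicate 1. OAS2 was above background on 2 cetrorelix and 3 control channels of 6, and in replicate 3 on none, and its ratios of 0.01, 0.39 and 0.02 are those of a probe near the floor.

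**Figure D2:**
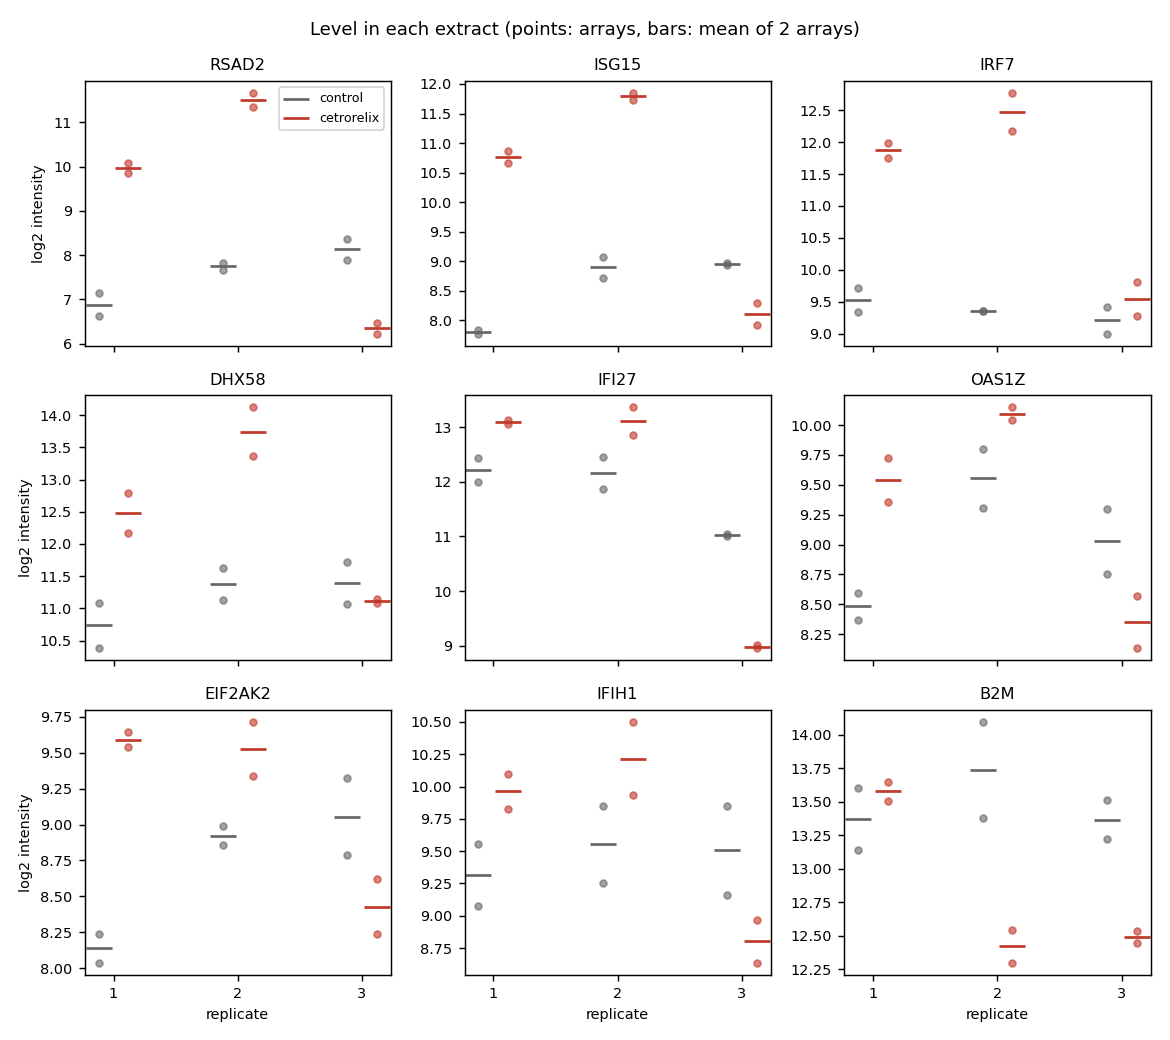
Log2 intensity of 9 genes (vertical axes, scale set for each gene) in the control (grey) and cetrorelix (red) extract of each replicate (horizontal axis); points are arrays and bars the mean of 2 arrays. In replicate 3 the cetrorelix extract lies below its own control extract for RSAD2, ISG15, DHX58, IFI27, OAS1Z, EIF2AK2, IFIH1 and B2M.

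The levels of the single extracts stand behind these ratios. RSAD2 had log2 intensities of 9.96, 11.51 and 6.35 in the cetrorelix extracts of replicates 1, 2 and 3, and of 6.88, 7.75 and 8.13 in the control extracts. The controls differed by 1.25 and the cetrorelix extracts by 5.16 from lowest to highest. In replicate 3 the cetrorelix signal was not well above background on either array, and the measured RSAD2 signal was 3.44-fold lower there than in its control.

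ISG15 was at 10.77, 11.79 and 8.11 with cetrorelix and at 7.81, 8.90 and 8.96 in controls. The cetrorelix extract of replicate 3 lay within the range of the control extracts, and the other two lay above it. IFI27 was at 13.10, 13.11 and 8.98 with cetrorelix and at 12.22, 12.16 and 11.04 in controls, so its low ratio in replicate 3 came with the lowest level of all 6 extracts.

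IRF7 was at 11.87, 12.47 and 9.55 with cetrorelix and at 9.53, 9.36 and 9.21 in controls. Its levels did not overlap between conditions, but the cetrorelix extract of replicate 3 was only 0.02 above the highest control. IRF7 and IRF3 were the members without overlap, 2 of 35, where 16.2% of all tested genes had none. The cetrorelix extracts spanned a wider range than the control extracts in 27 of the 35 tested members and in 60.2% of all tested genes. This held for all 12 members that differed among replicates, but these were chosen on ratios of the same levels.

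Of the remaining effectors, IFI6, a mitochondrial and membrane protein that opposes cell death, averaged 0.67, 0.80 and -0.59. XAF1, which binds the apoptosis inhibitor XIAP, averaged 0.16, 0.50 and -0.82 on its brightest probe and 0.45, 0.10 and 0.22 on another that passed no test. MX1, a GTPase that traps viral particles, averaged 0.50, 0.41 and -0.26. In replicate 3 its arrays read -0.55 and 0.03, and the cetrorelix signal was not well above background. MX2, above background on 3 cetrorelix and 4 control arrays of 6, averaged 0.17, 0.02 and -0.16.

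The IFIT proteins bind viral RNA at its end. IFIT5 averaged 0.77, 0.38 and -0.44 and was above background in all channels (limma adjusted p for a difference among replicates 0.0824). IFIT2 and IFIT3 were dim. IFIT2 averaged -0.56, -0.31 and 0.24, with the control signal of replicate 3 not well above background. IFIT3 averaged -0.19, 0.09 and -0.11. IFI35 and IFI44 lay within 0.55 of 0 in each replicate and passed no test. USP18, which removes ISG15 from proteins, averaged 0.03, 0.39 and -0.73, with cetrorelix not well above background in replicate 3. Another USP18 probe of like brightness averaged 0.09, 0.004 and -0.08, and neither probe passed a test. UBE2L6, the enzyme that conjugates ISG15, averaged -0.23, 0.40 and 0.09.

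Among the tested antigen presentation members only B2M differed among replicates, and its brightest probe had another order. B2M, the light chain of MHC class I, read 0.51 and -0.10 on the arrays of replicate 1, -0.84 and -1.80 on those of replicate 2 and -0.69 and -1.07 on those of replicate 3. Replicate 1 lay near 0, and its average of 0.21 became -0.03 under median centring. The mean over the replicates was -0.66 ± 0.78 (SD, n = 3; limma adjusted p = 0.258). A second B2M probe, dimmer, stayed within 0.12 of 0 in each replicate average. PSMB8 and PSMB9 are subunits of the immunoproteasome. PSMB9 averaged 0.17, 0.18 and 0.33, and PSMB8 was above background on 1 cetrorelix and 3 control arrays of 6 and in neither extract of replicate 2.

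PARP12 and PARP14 add ADP-ribose to proteins. PARP12 averaged 1.08, 0.91 and 0.01 with a mean of 0.66 ± 0.58 (SD, n = 3; limma adjusted p = 0.185). Replicate 3 was the lowest, but the difference among replicates did not pass (limma adjusted p = 0.125). On the authors' values the PARP12 ratio in replicate 3 was -0.04. PARP14 went the other way at -0.86, -0.39 and -0.33, below 0 on 6 of 6 arrays, with a mean of -0.53 ± 0.29 (SD, n = 3; limma adjusted p = 0.214).

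**Figure D3:**
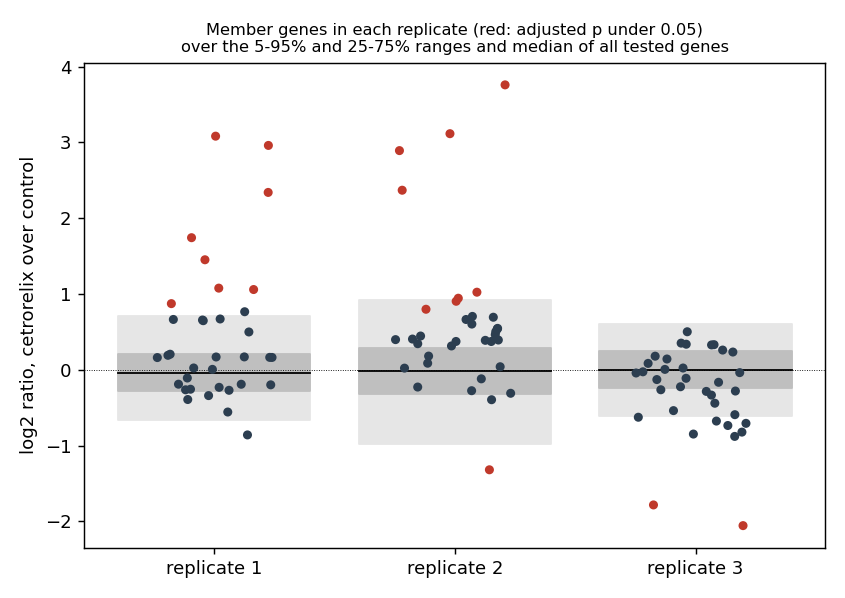
Log2 ratio of the 35 tested genes (points, vertical axis) in each replicate (horizontal axis) over the middle 90% (light) and middle 50% (dark) of all tested genes, with their median as a line. Red points passed the test within a replicate: 8 higher in replicate 1, 8 higher and 1 lower in replicate 2, and 2 lower in replicate 3.

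Within replicate 1, 8 members were higher with cetrorelix and 0 lower at limma adjusted p under 0.05 (2 lower at an unadjusted p under 0.05), where 4.97% of all tested genes passed (3.17% higher and 1.8% lower). They were RSAD2, ISG15, IRF7, DHX58, EIF2AK2, PARP12, OAS1Z and IFI27. Within replicate 2, 8 were higher (RSAD2, ISG15, IRF7, DHX58, JAK1, IFI27, PARP12 and IFI6) and B2M was lower, where 17.8% of all genes passed (8.02% higher and 9.83% lower). Within replicate 3, 0 were higher, also at an unadjusted p under 0.05, and RSAD2 and IFI27 were lower (2.05% of all genes, 1.21% higher and 0.839% lower). Under median centring the shares of all genes higher and lower were 2.5% and 4.4% in replicate 1 and 5.96% and 14% in replicate 2, and the members higher were 7 in each. These counts compare the extracts of 1 replicate with each other, with repeat arrays as the error.

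The median ratio of the 35 tested members was 0.17, 0.41 and -0.16 in replicates 1, 2 and 3, with 23, 29 and 12 members above 0. The medians of all tested genes were -0.04, -0.01 and 0.01. Across the members the averages of replicates 1 and 2 correlated at r = 0.828, those of 1 and 3 at -0.417 and those of 2 and 3 at -0.29 (all tested genes 0.522, 0.175 and 0.202). These points share arrays and probes and are given as a description. The repeat arrays of a replicate correlated across members at 0.86, 0.812 and 0.597, and across all genes at 0.214, 0.423 and -0.012.

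At an unadjusted p under 0.05 in the comparison of cetrorelix with control, 6 members were higher and 2 lower, which is 22.9% of 35, where 17.4% of all tested genes passed (8.2% higher and 9.15% lower). Under median centring these counts were 5 and 2, and the share of higher calls among all genes moved from 47.3% to 36.1%. Without replicate 3, 9 members passed at adjusted p under 0.05 by limma (DHX58, IFI27, PARP12, IRF7, ISG15, OAS1Z, EIF2AK2, RSAD2 and IFI6), all higher, where 10.2% of all tested genes passed. Without replicate 1, 0 members passed by limma, as did 0% of all tested genes, and 2 members had an unadjusted p under 0.05 (11.3% of all genes). Without replicate 2, IRF7 and ISG15 passed (1.36% of all genes).

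**Figure D4:**
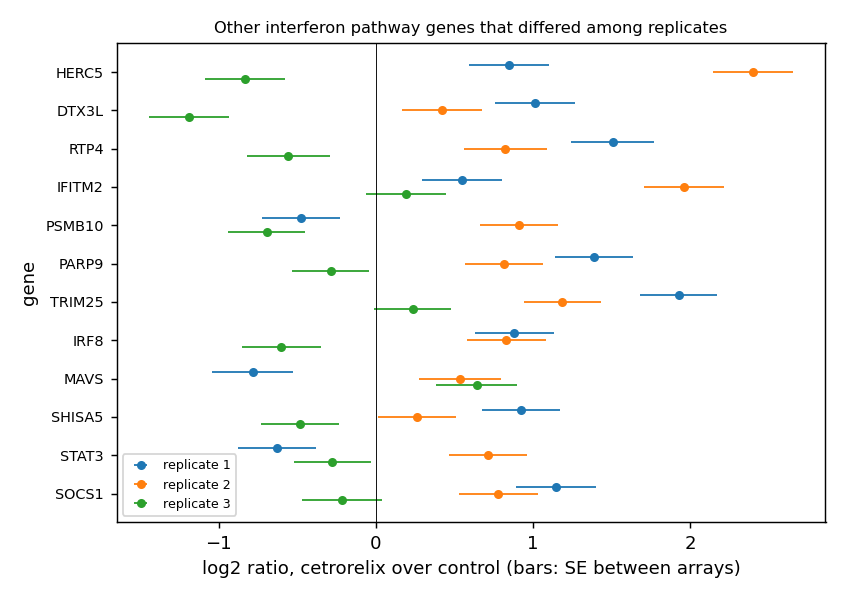
Log2 ratio of cetrorelix over control (horizontal axis) in replicates 1, 2 and 3 for 12 further interferon pathway genes (vertical axis); bars are standard errors from repeat arrays. In HERC5, DTX3L, RTP4, PARP9, IRF8, SHISA5 and SOCS1 replicates 1 and 2 lie above 0 and replicate 3 below it.

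Other genes of the pathway were read from a second list of 76 symbols, of which 64 had a probe and 53 were tested. Of these, 13 differed among replicates by limma (24.5%, beside 5.52% of all tested genes). HERC5, in human the ligase that attaches ISG15, averaged 0.85, 2.40 and -0.83. The partner proteins DTX3L and PARP9 averaged 1.01, 0.42 and -1.19, and 1.39, 0.81 and -0.29. RTP4 averaged 1.51, 0.83 and -0.56, and SOCS1, a feedback inhibitor of JAK kinases, 1.15, 0.78 and -0.21. In these 5 genes, as in RSAD2 and ISG15, replicate 3 alone was below 0.

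IRF8, a transcription factor of the IRF family, averaged 0.88, 0.83 and -0.60, and SHISA5 0.92, 0.26 and -0.48. TRIM25, a ubiquitin ligase of the RNA sensing pathway, stayed above 0 at 1.93, 1.19 and 0.23, and so did IFITM2, a membrane protein that blocks viral entry, at 0.55, 1.96 and 0.19. Others had a different order: the proteasome subunit PSMB10 lay at -0.48, 0.91 and -0.69, and the adaptor MAVS at -0.78, 0.54 and 0.64. STAT3 lay at -0.63, 0.72 and -0.28 on its brightest probe, a dim one above background on 3 cetrorelix and 5 control arrays. Other tested STAT3 probes averaged -0.30, 0.03 and 0.36, and -0.33, 0.06 and -0.23. These probes did not differ among replicates (limma adjusted p = 0.588 and 0.797). In the comparison of cetrorelix with control none of the 53 passed at adjusted p under 0.05, and 9 had an unadjusted p under 0.05 by limma (17%, beside 17.4% of all tested genes).

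Markers of leukocytes, which respond strongly to interferon, were set beside these values. Of the 9 that could be tested, 0 differed among replicates by limma, with or without adjustment, and 0 reached an unadjusted p under 0.05 in the comparison of cetrorelix with control. Their summed intensity ranged from 1513 to 1546 over the cetrorelix extracts and from 1488 to 1605 over the control extracts. Only 2 of these 9 were above background in all channels, so the sum lies mostly at the floor and a small change could not be seen in it. Among 12 cumulus and granulosa markers, AMH, CYP19A1 and HSD17B1 differed among replicates. AMH averaged 0.40, 2.79 and 1.24, HSD17B1 -0.39, 1.83 and 0.27, and CYP19A1, the aromatase that makes estradiol, -0.54, -0.75 and 0.60 on its brightest probe. Another CYP19A1 probe above background in all channels averaged -0.12, 0.02 and 0.10 and did not pass, nor did a dim one. Of the markers of theca and stroma LUM differed, at -0.14, -0.75 and 0.82, and of those of red cells HBA, at -0.63, 0.73 and 0.15. The part of these markers in the values of the interferon response genes was not tested.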

How the data were processed

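Gene expression in bovine cumulus cells was measured on 6 two-colour arrays. The deposited scanner tables hold raw median spot and local background intensity per dye, per the file headers. The authors also deposited log2 values, used as an alternative, with limma named per the submitters' processing notes and no correction step given in the sources used here. Set against the ratios computed from the intensities, these log2 values gave r from 0.987 to 0.997 over the arrays. Their array medians ran from -0.03 to 0.01, and how they were centred is unknown.

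On each array 36 to 94 of 45212 spots were marked by the image analysis and left out. The normexp method (offset 50) corrected the background, ratios were normalized within arrays by loess, turned to cetrorelix over control and averaged over the 2 arrays of a replicate. Probes above the 95th percentile of 153 negative controls on at least 3 arrays in either condition were kept, and 32125 were tested. Tests used limma 3.58.1 in R 4.3.3 (lmFit and eBayes, two-sided, Benjamini-Hochberg over all tested probes): the 3 averages against 0, and, over the 6 arrays with a dye term, each replicate against 0 and an F test among replicates. Errors are SDs of the averages. Levels of extracts were taken after loess and Aquantile. A gene was counted by its brightest tested probe, and 21790 probes had 1 symbol. Arrays have no read depth, and their number limits the precision. Tests were checked on simulated data.

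The design text gives each replicate a dye swap, and deviations of arrays with the same replicate number correlated at 0.222, 0.377 and 0.359, so these were taken as pairs. The members and lists were chosen with earlier results of these data known. All tested members are named. Values by array or replicate are given for those that differed among replicates, and for those with 1 sign in all replicates and an unadjusted p under 0.05. Of the second list, those that differed are named, up to 12 of lowest p. Promoter motifs and sequences were not analysed here. Alternatives were background correction, centring, scale normalization between arrays, the authors' values, filter, probe choice, slide, dye term, replicate block, left-out replicates and robust moderation.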

Additional observations from a re-analysis of the deposited data

How the results depend on the processing

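In the comparison of cetrorelix with control, 330 probes and 1 member passed. The number of probes was 4 without background correction, 16 under median centring, 9 on the authors' values, 699 with the replicate block, 1810 with slide as a term, 1107 on the arrays with cetrorelix in Cy5 alone and 2944 on those with cetrorelix in Cy3 alone. The number of members was 0 without background correction, under median centring and on the authors' values, 1 with the replicate block (IRF7), 4 with slide as a term, and 3 on either set of arrays alone. Leaving out a replicate gave 0 to 2354 probes and 0 to 9 members. For the difference among replicates, 1390 probes and 12 members passed. The probes numbered 3467 without background correction, 2240 under median centring, 3814 when both channels of all arrays had to be above background, 2539 on the authors' values, 573 on gene means, and 2 without the dye term, with 2 members. With a replicate left out, 135 to 1565 probes and 1 to 10 members passed, and the lowest counts were those without replicate 3. Within replicates, the members lower in replicate 1 were 1 instead of 0 without background correction and on the authors' values (4.12% and 3.27% of all genes). Those lower in replicate 3 were 4 in both these settings (2.7% and 1.98% of all genes), 6 of 16 under the stricter background filter (6.19%), 1 on gene means (0.25%) and 0 without the dye term (0%). In replicate 2, 5 were higher and 0 lower on gene means (5.68% and 7.07% of all genes), and 4 and 0 without the dye term (0.742% and 0.508%), where 2 were higher in replicate 1 (0.0323%). Some signs turned. On gene means IFI27 was 0.014 and XAF1 0.102. On the arrays with cetrorelix in Cy3 alone, IFI27 was 0.178, XAF1 0.140 and IFIH1 -0.287. With a replicate left out, IFI27 ran from -0.59 to 0.91, IFIH1 from -0.028 to 0.657, OAS1Z from -0.067 to 0.80, EIF2AK2 from -0.010 to 1.029, XAF1 from -0.329 to 0.333 and JAK1 from -0.182 to 0.50. Within replicates, median centring gave B2M -0.034 in replicate 1 and JAK1 0.082 in replicate 3, and the authors' values gave PARP12 -0.036 in replicate 3. The cause of these changes was not tested. Dim probes limit what could be seen for 19 of the 35 members.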
